A study of Mus musculus with 6 samples.

Results

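Glutamate receptors, glutamate transporters and the scaffold and kinase proteins of the postsynaptic side were followed through their transcripts in the spinal cord of Nogo-A knockout and wild type mice. The list held 34 genes, set by name with earlier results of these data known. Every probe set annotated to 1 of these genes alone was taken. That gave 67 probe sets for 31 genes, out of 45037 probe sets that are not controls. Grin1, Slc17a8 and Shank2 had no probe set in the annotation table used here. Cords came from 3 Nogo-A knockout mice and 3 wild type mice, all C57Bl/6 males aged 4 months that had received no treatment, and total RNA of each animal was read on 1 Affymetrix Mouse 430 2.0 array. How the knockout allele was made, and in which cells it acts, is not given in the sources used here. The series compared uninjured adult cords of the 2 genotypes. Because whole cord was measured, fewer cells of a type and less RNA per cell cannot be told apart.

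Glutamate carries most fast excitation in the spinal cord, from sensory fibres to the dorsal horn, between interneurons, and from descending axons to motor neurons. Vesicular transporters fill synaptic vesicles with it, AMPA and kainate receptors open within milliseconds of its release, NMDA receptors add a slower calcium current, and metabotropic receptors act through G proteins. On the receiving side Dlg4 (PSD-95), Shank and Homer proteins tie the receptors into the postsynaptic density, where CaM kinase II is the most studied kinase of synaptic strengthening.

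The labels were checked on Rtn4, the gene that encodes Nogo-A. Its probe set 1437224_at had signals of 78.2, 9.17 and 5.08 on the knockout arrays, against 3560, 2790 and 2802 on the wild type arrays (limma, Benjamini-Hochberg adjusted p = 0.0151). It was the 1 probe set of 23525 tested that passed an adjusted p of 0.05, a share of 0.00425%, while 1013 were higher and 937 lower in knockout at an unadjusted p under 0.05. That split was 2799 higher and 263 lower when each array was divided by its median. The 4 other Rtn4 probe sets were brighter on each knockout array than on every wild type array, with adjusted p-values of 0.538 to 0.591. Arrays differed in their dim signals, with 5th percentiles of 4.57 to 4.91 in knockout and of 5.26, 10.5 and 19.97 on wild type replicates 1 to 3. All 7 Hox genes of spinal position and all 10 general neuron markers were measured on the arrays, whereas neither forebrain marker with a probe set, Emx1 or Neurod6, was bright enough to be tested. Summed signals of the 10 neuron markers were 135079 to 136630 in knockout and 112347 to 133854 in wild type, lowest on wild type replicate 3. The 5 skeletal muscle markers summed to 10674 on knockout replicate 2 and 5343 on wild type replicate 3, and to 934 to 1848 on the other 4 arrays.

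No glutamate gene of the list passed the adjusted threshold. Testing required a signal at or above the array's own median in 2 or more animals of the same genotype, which 47 of the 67 probe sets reached, standing for 26 genes. In counts of genes each gene is represented by its brightest tested probe set, and differences are knockout minus wild type on the log2 scale. The smallest adjusted p among the 47 was 0.594 (limma, Benjamini-Hochberg). At an unadjusted p under 0.05 the count was 1 lower and 0 higher, or 2.13% lower, where 3.98% of all tested probe sets were lower and 4.31% higher. Over the 26 genes the log2 differences ran from -0.37 in Grik1 to 0.41 in Grik5, with a median of -0.051, against 0.028 over all 11645 tested genes. The 95% confidence interval of the difference, not adjusted for the number of genes, lay within a 2-fold change either way in 24 of the 26 genes and within 1.5-fold in 15. The exceptions to the 2-fold bound were Grik4 and Grm8, whose wild type signals were spread widely. These counts cover the brightest tested probe set of each gene. Dimmer tested probe sets of 3 genes counted within the bound also reached past it. Their log2 intervals were -1.68 to 0.11 in Grik2, -1.29 to 0.40 in Grm7, and -1.19 to 0.46 and -1.16 to 0.65 in Camk2a.

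**Figure D1:**
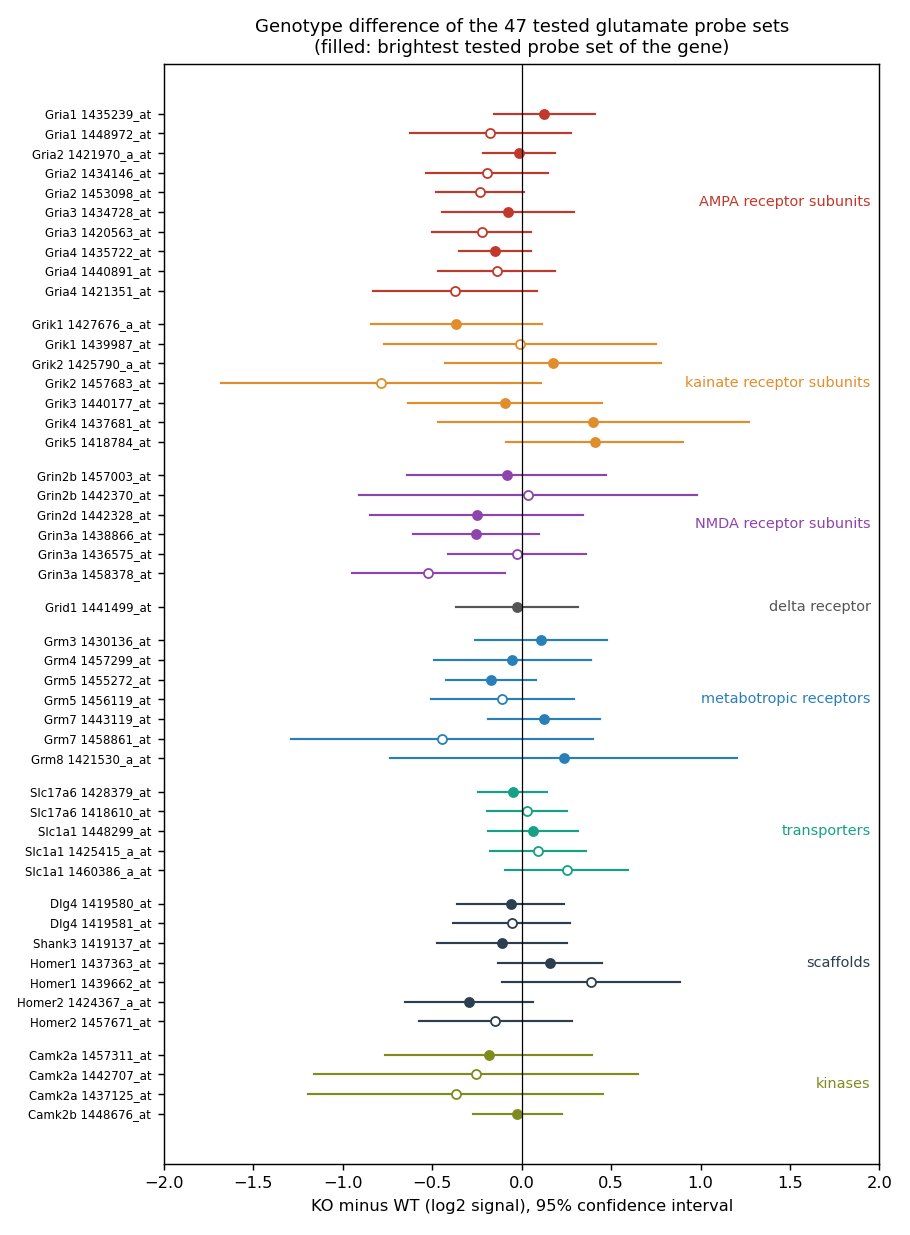
Difference between knockout and wild type for each of the 47 tested glutamate probe sets, grouped by family, in log2 signal. Points are fitted differences, filled for the brightest tested probe set of a gene, and lines are 95% confidence intervals. The interval of 1 probe set, Grin3a 1458378_at, lies entirely below 0, and those of the other 46 include 0.

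AMPA receptor subunits, which form the channels of fast excitation, lay slightly lower in knockout at most of their probe sets, and none passed the test. Of 10 tested probe sets of the 4 genes, 9 had a lower mean in knockout, with a median log2 difference of -0.16, whereas 48.6% of all tested probe sets had a difference below 0 and their median was 0.0079. Counted by gene, 3 of 4 lay lower, with a median of -0.047. Of all tested genes 44.2% lay below 0, with a median of 0.028. Gria2 encodes the subunit whose edited form keeps calcium out of the channel. Its brightest probe set had signals of 2924, 2837 and 2986 in knockout cords and 3072, 2962 and 2821 in wild type cords. These values overlapped, and the log2 difference was -0.017 with a 95% interval of -0.22 to 0.19 (adjusted p = 0.973, limma). Another Gria2 probe set, 1453098_at, read 1405, 1235 and 1480 in knockout, below the 1570, 1656 and 1603 of wild type, a log2 difference of -0.23 ± 0.11 (SE, limma adjusted p = 0.609). The remaining Gria2 probe set was at 1600 to 1779 in knockout and, in wild type, at 2267 and 2218 on replicates 1 and 2 but 1489 on replicate 3.

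Gria4, a subunit with rapid kinetics, had the same lean at all 3 of its probe sets. The brightest had signals of 2727, 2634 and 2802 in knockout and 3158, 2937 and 2959 in wild type, so that the genotypes did not overlap. The log2 difference was -0.15 ± 0.092 (SE, limma adjusted p = 0.677), or 0.902-fold with an interval of 0.783 to 1.04. Gria3, another pore-forming subunit, had 706, 823 and 755 in knockout against 926, 838 and 899.7 in wild type at its dimmer probe set (log2 difference -0.22), again without overlap. At its brighter probe set the ranges were 1379 to 2243 in knockout and 1747 to 2128 in wild type and overlapped. Gria1, the subunit best known for activity-dependent insertion at synapses, gave opposite signs at its probe sets, 0.13 at the brighter, which read 1285 ± 125 in knockout and 1178 ± 133 in wild type (SD, n = 3 each), and -0.18 at the dimmer.

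Relative to the wild type mean, the median position of the 10 AMPA probe sets was -0.17, -0.082 and -0.24 on knockout replicates 1 to 3 and 0.060, 0.025 and -0.070 on wild type replicates 1 to 3. Scaling changed the count below 0. After quantile normalization it was 9 of 10, and after division of each array by its median, a step that took the median of all tested probe sets to 0.23, it was 3 of 10, with 9 of 10 still under that median. With no filter the median of all probe sets was -0.093, and 7 of the 10 lay under it. Probe sets of a gene share its transcripts, so these counts are descriptions and were given no test.

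**Figure D2:**
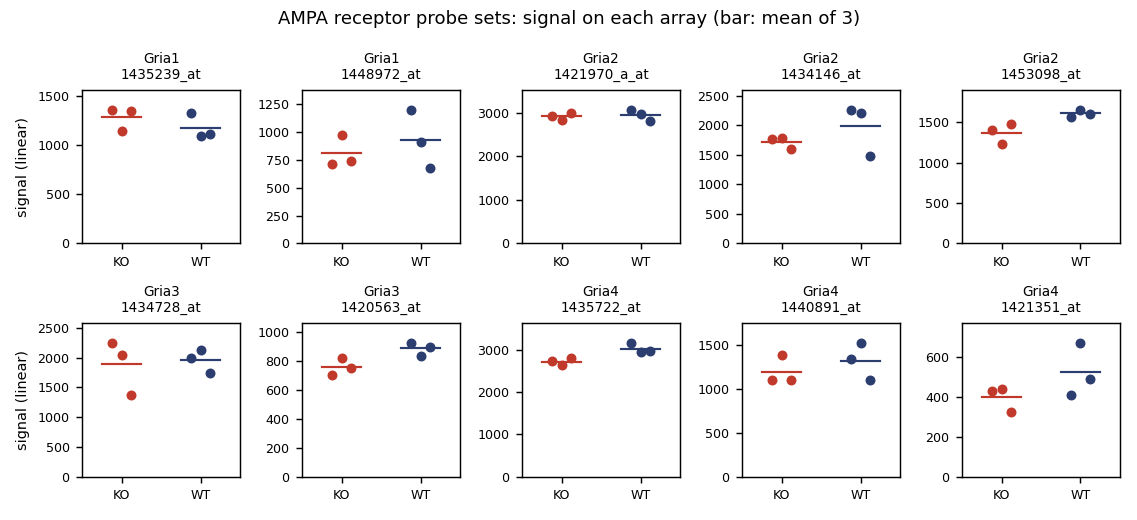
Signal of the 10 tested AMPA receptor probe sets on each array, linear scale from 0, with knockout left and wild type right and a bar at the mean of 3. Knockout and wild type values do not overlap in Gria2 1453098_at, Gria3 1420563_at and Gria4 1435722_at, all with knockout lower, and overlap in the other 7 panels. Of all tested probe sets, 6.62% were without overlap with knockout lower and 7.85% with knockout higher.

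Kainate receptor subunits did not pass the test, with 3 of 5 genes higher and 2 lower in knockout. Grik1 and Grik3, which can form channels on their own, had log2 differences of -0.37 and -0.094, and Grik2, a subunit of the same class, had 0.18. Grik4 and Grik5, which need a partner from that class, had 0.40 and 0.41. Grik5 read 312, 556 and 463 in knockout and 361, 285 and 334 in wild type. The highest wild type value exceeded the lowest in knockout, and the adjusted p was 0.650 in limma. Grik1 read 304, 248 and 214 in knockout and 329, 282 and 371 in wild type at its brightest probe set, an overlap between the lowest wild type and the highest knockout array. The other tested Grik1 probe set, 1439987_at, had a log2 difference of -0.0097, and of 0.19 after quantile normalization. Grik4 had 276, 186 and 267 in knockout against 93.3, 218 and 293 in wild type. Its lowest value was wild type replicate 1, and without that array its log2 difference was -0.079. The Grik2 probe sets read 198, 197 and 202 in knockout and 154, 164 and 217 in wild type at the brighter, and 123 ± 46.9 in knockout and 214 ± 84.8 in wild type at the dimmer (SD, n = 3 each). The dimmer, with a log2 difference of -0.79, passed the filter only through wild type, where it is brighter.

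NMDA receptor genes held the 1 probe set of the list with an unadjusted p under 0.05. Grin3a encodes a subunit that lowers the calcium permeability of the receptor. Its probe set 1458378_at had signals of 253, 234 and 246 in knockout, against 322, 401 and 333 in wild type, with every knockout value below every wild type value. The log2 difference was -0.52 ± 0.19 (SE), 0.697-fold, with a 95% interval of 0.518-fold to 0.938-fold (adjusted p = 0.594, limma). The brightest Grin3a probe set read 545, 452 and 501 in knockout and 566, 531 and 702 in wild type and overlapped at 1 pair of arrays. Its log2 difference was -0.26, and that of the remaining one was -0.027. The series' design text called a transcript by an unadjusted p under 0.05 together with a change of 1.2-fold or more. With those bounds, at the deposited scaling, the methods' t-test named Grin3a 1458378_at alone among the 47, 2.13% of them. Of all tested probe sets 2.59% were called lower and 2.24% higher. The design text's division by array medians and its present calls were not part of that run, so the authors' full rule was not applied. After division by the array median, Grin3a 1458378_at had a log2 difference of -0.30 (limma unadjusted p = 0.198). Without the bound on fold, the methods' t-test had 4 of the 47 lower at an unadjusted p under 0.05, of Gria2, Gria3, Gria4 and Grin3a, and 0 higher, beside 3.17% of all tested probe sets lower and 3.98% higher. The smallest p of the list in the methods' t-test after Benjamini-Hochberg adjustment was 0.684.

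Among the subunits that bind glutamate, Grin2b, typical of slow NMDA currents, had log2 differences of -0.084 and 0.037 at its tested probe sets. Grin2d, which gives the slowest currents and is best known from early development, read 318, 397 and 294 in knockout and 272, 379 and 608 in wild type. Its log2 difference of -0.25 rested on wild type replicate 3 and was 0.055 without that array. Grin2a and Grin2c had no tested probe set. The delta receptor gene Grid1, whose protein binds cerebellin and neurexin at synapses, read 512 ± 24.2 in knockout and 523 ± 70.7 in wild type (SD, n = 3 each), a log2 difference of -0.025 with an interval of -0.36 to 0.31.

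None of the 5 tested metabotropic receptor genes passed, and 3 of them lay higher and 2 lower. Grm5, a group I receptor that couples to calcium release and binds Homer, had 1443, 1385 and 1332 in knockout and 1649, 1651 and 1395 in wild type at its brightest probe set. The wild type arrays 1 and 2 lay above all knockout arrays and wild type array 3 lay among them, and the log2 difference was -0.17 ± 0.11 (SE, limma adjusted p = 0.688). Grm3, a group II receptor found on astrocytes as well as neurons, read 1295 ± 27.6 in knockout and 1227 ± 311 in wild type (SD, n = 3 each). Of the group III receptors, which reduce transmitter release, Grm7 read 1432 ± 88.5 and Grm4 481 ± 44.2 in knockout, against 1326 ± 255 for Grm7 and 509 ± 143 for Grm4 in wild type (SD, n = 3 each). Grm7 had opposite signs at its tested probe sets, with log2 differences of 0.13 at the brightest and -0.45 at the dimmer. The dimmer passed the filter only through wild type. Grm8, also of group III, had 182, 193 and 164 in knockout and 166, 283 and 75.8 in wild type. Its wild type values enclosed the knockout values, and its log2 difference of 0.23 became -0.27 without wild type replicate 3.

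Neither tested transporter gene passed. Slc17a6 encodes VGLUT2, the vesicular transporter of most excitatory neurons whose cell bodies lie in the cord. It read 6200, 5953 and 5705 in knockout and 6326, 6406 and 5768 in wild type at its brightest probe set. The genotypes overlapped, and the 95% interval of the fold ran from 0.844 to 1.10 around 0.966 (limma adjusted p = 0.896). The other Slc17a6 probe set had a log2 difference of 0.029, with knockout at 3036 ± 210 and wild type at 2976 ± 229 (SD, n = 3 each). Slc17a7, which encodes VGLUT1, the transporter of large sensory afferents and corticospinal axons with cell bodies outside the cord, did not reach the signal needed for a test and read 75.7, 42.4 and 64.2 in knockout and 79.8, 15.6 and 158 in wild type. Slc1a1 encodes EAAC1, a neuronal transporter that takes glutamate and cysteine back into the cell. Its 3 probe sets all lay slightly higher in knockout, with log2 differences of 0.063, 0.092 and 0.25. The dimmest, 1460386_a_at, had 527, 491 and 635 in knockout, above the 488, 436 and 457 of wild type, and was the 1 tested probe set of the list without overlap on the higher side (limma adjusted p = 0.678).

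Of the 4 tested scaffold genes 3 lay lower and 1 higher in knockout, and none passed. Dlg4, the gene of PSD-95, read 642, 577 and 599 in knockout and 615, 600.0 and 684 in wild type, with overlap and a log2 difference of -0.062 (limma adjusted p = 0.916), and its second tested probe set gave -0.057. Shank3, which joins PSD-95 complexes to the actin skeleton, read 526 ± 61.7 in knockout and 569 ± 91.6 in wild type (SD, n = 3 each). The Homer genes, whose proteins link Shank to metabotropic receptors, leaned apart. Homer2 read 464, 372 and 460 in knockout, below the 506, 593 and 487 of wild type, with a log2 difference of -0.29 ± 0.16 (SE, limma adjusted p = 0.651). Homer1 was at 936 ± 50.9 in knockout and 843 ± 105 in wild type (SD, n = 3 each) at its brightest probe set, a log2 difference of 0.16, and at 0.39 at the other one tested (limma adjusted p = 0.665). The difference between Homer1 and Homer2 was not tested.

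The kinase gene Camk2b, of the beta subunit that binds actin, had 1835, 1520 and 1629 in knockout and 1629, 1821 and 1609 in wild type. Its genotypes overlapped over most of their range, at a log2 difference of -0.023 with an interval of -0.27 to 0.23. Camk2a, of the alpha subunit, read 862, 520 and 625 in knockout and 991, 867 and 480 in wild type at its brightest probe set, where wild type replicate 3 was the lowest of the 6 arrays. With all arrays its log2 difference was -0.19 (limma adjusted p = 0.864), and without wild type replicate 3 it was -0.50 (limma adjusted p = 0.350). The dimmer tested Camk2a probe sets moved in opposite directions when that array was left out. Log2 differences went from -0.25 to 0.22 at 1442707_at and from -0.37 to -0.55 at 1437125_at.

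**Figure D3:**
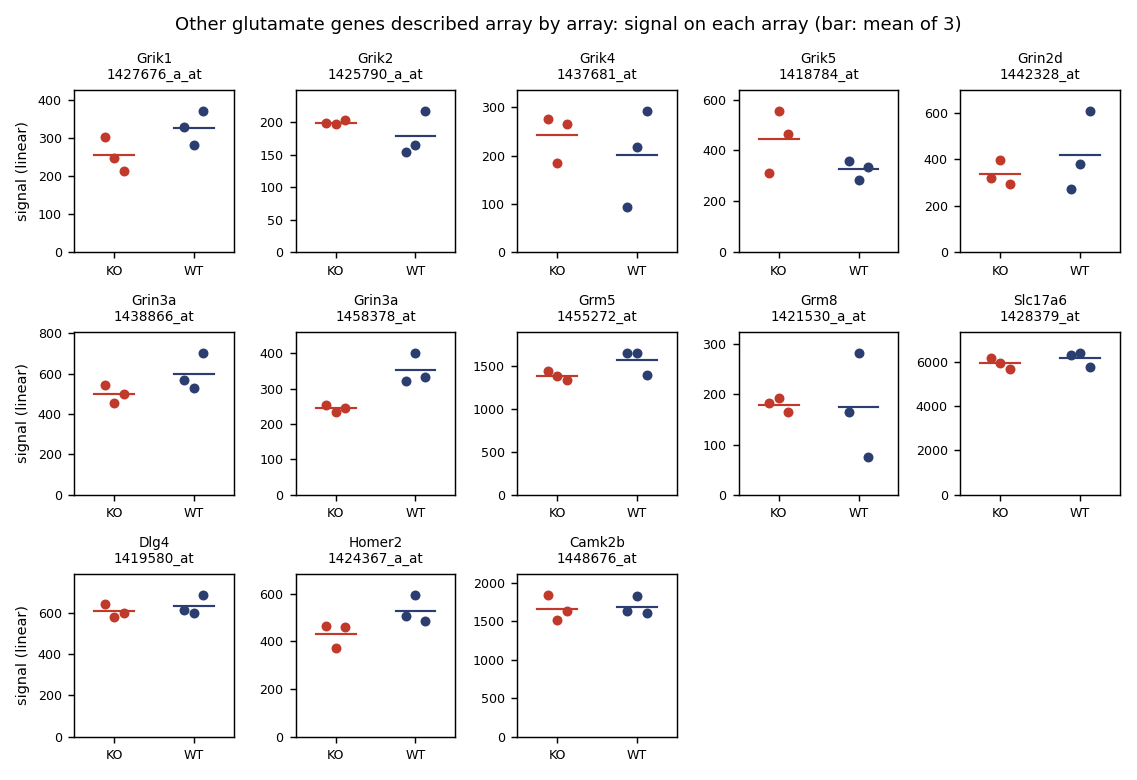
Signal on each array of the glutamate probe sets outside the AMPA family that were chosen by size of difference, by an unadjusted p under 0.05 or as a lead gene of a family, on linear axes from 0 with knockout left, wild type right and a bar at the mean of 3. Other probe sets given array by array in the text are not shown, among them Slc1a1 1460386_a_at, without overlap and with knockout higher. Grin3a 1458378_at and Homer2 1424367_a_at show all knockout values below all wild type values, while Slc17a6, Dlg4 and Camk2b overlap.

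Among tested probe sets at the deposited scaling, more of the list lay below 0 than of the array, a count that moved with the filter and the scaling. Of the 47 tested probe sets 33 lay below 0, or 70.2%, and of the 26 genes 17 did, or 65.4%, beside 48.6% of all tested probe sets and 44.2% of all tested genes. Division by the array median left 12 of the 47 below 0, while 33 lay under the median of all tested probe sets, which that step took to 0.23. Quantile normalization left 30 of the 47 below 0 and 30 under the median of all tested probe sets. At the deposited scaling the median of the 47 was -0.076 and that of all tested probe sets 0.0079, whereas with no filter the median of all 67 was -0.076 and that of the array -0.093, with 32 of 67 under the array's median. With the filter at the 25th percentile 35 of 64 lay under it. Probe sets without overlap were 5 on the lower side, or 10.6%, and 1 on the higher side, or 2.13%, where 6.62% and 7.85% of all tested probe sets were without overlap with knockout lower and higher. The 5 belonged to Gria2, Gria3, Gria4, Grin3a and Homer2, 1 each. The filter was passed in both genotypes by 42 of the 47, of which 29 lay below 0, through knockout alone by 1 probe set each of Grik1 and Camk2a, and through wild type alone by 1 each of Grik2, Grin2b and Grm7. Where 2 or more probe sets of a gene were tested, all of them lay lower in 9 of 16 genes, all higher in 2 and on both sides in 5.

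Summed signals of the general neuron markers ran the other way, as their lowest knockout sum, 135079, was above the highest wild type sum, 133854. Bright probe sets in general leaned higher in knockout. With the filter at the 75th percentile the median of all tested was 0.049. At an unadjusted p under 0.05 in limma, 6.67% of those were higher and 2.1% lower. Of single probe sets tested in the main fit, 7.85% were without overlap with knockout higher, and no such share was taken for sums. Taken singly, the neuron markers had log2 differences from -0.044 in Map2 to 0.30 in Rbfox3. Sums of the 6 oligodendrocyte markers with a probe set were 117667 to 130945 in knockout and 102673 to 104829 in wild type. Of these, Mog did not lean higher, at 2711 to 3008 in knockout and 2753 to 3353 in wild type. Those of 2 Schwann cell markers summed to 16035 to 22387 in knockout and 13063 to 15440 in wild type. The 3 oligodendrocyte precursor markers summed to 1550 to 1635 in knockout and 1392 to 1491 in wild type. The 5 connective tissue markers summed to 9357 to 10444 in knockout and 6348 to 8187 in wild type, with Lum apart from the other 4 at 339 to 432 in knockout and 540 to 564 in wild type. Sums of inhibitory neuron, motor neuron, astrocyte and microglia markers overlapped between the genotypes. Those of inhibitory neurons were 12634 to 12722 in knockout and 10828.5 to 12868.5 in wild type. Microglia markers summed to 7109 to 8253 in knockout and 7361 to 9645 in wild type. The part of these markers in the count was not tested. Without wild type replicate 3, the array with the lowest neuron marker sum, 5 probe sets of the list had an unadjusted p under 0.05, all lower, where 5.32% of all tested probe sets were lower and 6.54% higher. They belonged to Gria1, Gria2, Grin3a, Grm5 and Camk2a, and the smallest adjusted p was 0.225, at Gria2 1434146_at with a log2 difference of -0.39 (limma). Leaving out any other array gave fewer at that threshold. In those fits 0 to 2 probe sets of the list were lower, beside 2.4% to 7.42% of all tested. Higher ones numbered 0 to 1, beside 1.7% to 6.81%.

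**Figure D4:**
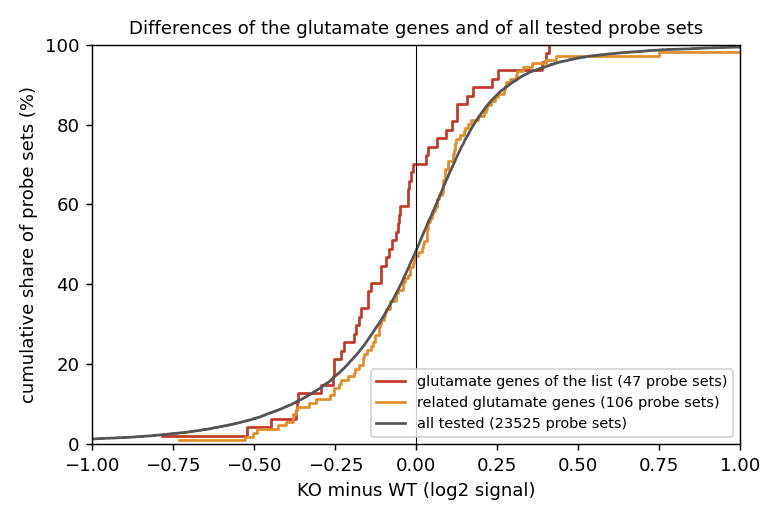
Cumulative share of probe sets, in percent, by their log2 difference between knockout and wild type, for the 47 probe sets of the list, 106 probe sets of related glutamate genes and all 23525 tested probe sets. The axis ends at -1 and 1. At a difference of 0, for probe sets past the filter and at the deposited scaling, the curve of the list stands at 70.2% and that of all tested probe sets at 48.6%. With no filter the median of the list, -0.076, was above that of the array, -0.093.

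Other genes of glutamatergic synapses, taken from a list of 67 names that are not members, had 57 genes with a probe set and 52 tested. Their median log2 difference was 0.029, beside 0.028 for all tested genes, and 23 of 52 lay below 0. None passed the adjusted threshold (limma, smallest adjusted p = 0.591). At an unadjusted p under 0.05, 3 of 52 were higher, beside 4.95% of all tested genes, and 1 was lower, beside 3.25%. The higher ones were Nsf, the ATPase that recycles SNARE complexes and binds AMPA receptors, with 15788, 15012 and 15009 in knockout against 13803, 12966 and 12611 in wild type, Nrn1, a membrane-anchored neurite growth protein, with a log2 difference of 0.25, and Camk2n2, an inhibitor of CaM kinase II, with 0.36. The lower one was Cacng7, an auxiliary subunit of AMPA receptors, which read 178, 263 and 269 in knockout and 293, 512 and 383 in wild type, a log2 difference of -0.73 ± 0.26 (SE, limma adjusted p = 0.591). Both Nsf and Cacng7 separated the genotypes without overlap. Slc1a2, the main glutamate transporter of astrocytes, read 18504 ± 302 in knockout and 18244 ± 1477 in wild type at its brightest probe set (SD, n = 3 each), a log2 difference of 0.024 with a limma adjusted p of 0.956. A dimmer Slc1a2 probe set read 240, 275 and 238 in knockout, below the 322, 328 and 415 of wild type, a log2 difference of -0.49 (limma adjusted p = 0.594). Over all 106 tested probe sets of the related genes, 7 were higher and 3 lower at an unadjusted p under 0.05. The shares of all tested probe sets were 4.31% and 3.98%. Dimmer probe sets of Slc1a3 ran from -0.43 to 0.43, and dimmer ones of Grina and Glud1 had 0.33 and 0.19.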

How the data were processed

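The authors deposited linear intensities, 1 per probe set and array, made with MAS 5.0 in GCOS 1.4, per the labels' processing notes and the design text. Trimmed means of 500.00 on every array show a common scaling target. Present calls, scan dates and the genome build were not given in the sources used here, and the number of arrays limits the precision.

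Here the 64 control probe sets were left out, and log2 of the intensity was fitted for genotype in limma 3.58.1 under R 4.3.3 (lmFit, eBayes with intensity trend), with Benjamini-Hochberg adjustment over all 23525 probe sets at or above the 50th percentile of their array in 2 of 3 animals of a genotype. The authors' deposited scaling was kept because the division by array medians that the design text names moved the median difference of all tested probe sets to 0.23. Symbols of the platform's annotation were brought up to date with a RefSeq table of GRCm38.p6 (34754 of 35890 matched).

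Members, lists and tests were chosen with earlier results of these data known. Every member is named. Values on each array are given for members past the adjusted threshold or with an unadjusted p under 0.05, the 4 largest and 4 smallest differences and a lead gene per family. The AMPA probe sets, others without overlap, Camk2a and Slc17a7 were added after their values were seen. On data simulated for knockout against wild type over 23525 probe sets, the fit recovered 10.5% of 1.5-fold, 42.2% of 2-fold and 77.5% of 4-fold changes. With 3 against 3, an exact permutation test cannot give a p below 0.1. Alternatives were other scalings and filters, an offset of 50, eBayes with no trend, leaving out each array, a block on replicate number, the mean of a gene's probe sets and the methods' t-test.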

Additional observations from a re-analysis of the deposited data

How the results depend on the processing

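No glutamate probe set of the list passed the adjusted threshold under any of the 16 alternatives. The count over all tested probe sets, 1 as reported, was 2 after division by the array median, 4 with the replicate block, 0 in eBayes without the trend (696 higher and 1139 lower at an unadjusted p under 0.05) and 0 in the methods' t-test after adjustment (936 higher and 746 lower at an unadjusted p under 0.05). Leaving out 1 array gave 0 to 9, with 9 when wild type replicate 1 was out, 3 when wild type replicate 3 was out, and 0 for wild type replicate 2 (limma, 745 higher and 565 lower at an unadjusted p under 0.05) and for knockout replicate 2 (855 higher and 729 lower). Deviations of same-numbered arrays correlated at -0.035, 0.074 and 0.11, and not every array correlated best with its own number. With 3 animals per genotype, these values cannot show whether the replicate numbers pair the animals. In limma with the block, the smallest adjusted p of the list was 0.477. Division by the array median moved the median difference of the 26 glutamate genes to 0.17 and that of the related genes to 0.25, beside a median of 0.23 over all tested probe sets. At an unadjusted p under 0.05 it gave 3 probe sets of the list higher, of Grik5, Homer1 and Slc1a1, beside 11.9% of all tested probe sets, and 0 lower, and quantile normalization gave 2 lower, of Gria2 and Gria4, beside 2.80%. Division turned Gria2 to 0.20, Grm5 to 0.050, Slc17a6 to 0.17, Dlg4 to 0.16 and Camk2b to 0.20, and centring on the tested probe sets turned Gria2 to 0.0088 and Camk2b to 0.0023. With 1 array left out, Gria2 ranged from -0.049 to 0.012, turning when knockout replicate 2 (0.0026) or wild type replicate 1 was out, and Camk2b from -0.098 to 0.038, turning when knockout replicate 2 or wild type replicate 2 (0.033) was out. Grik4 ranged from -0.079, when wild type replicate 1 was out, to 0.75. Grin2d ranged from -0.53 to 0.055 and Grm8 from -0.27 to 0.68, both turning when wild type replicate 3 was out. Of 216 values of the 14 probe sets followed, 202 kept their direction and 14 turned. Grin3a 1458378_at stayed lower wherever it was tested, from -0.58 when wild type replicate 1 was out to -0.30 after division by the array median, and was too dim for the filter at the 75th percentile. The causes of these changes were not tested.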

Other observations

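The 20 probe sets of the list that were too dim to be tested had signals of 3.93 to 198 in knockout and 6.32 to 247 in wild type, at levels where the arrays themselves differed. Among their genes, Grin2a, an NMDA subunit, Grin2c, another, Grm2, a group II metabotropic receptor, Slc17a7 and Shank1, a scaffold, had no brighter probe set. In 4 of the 20 every knockout value lay above every wild type value and in 2 every one lay below, where 2.05% of all 21512 untested probe sets were without overlap with knockout higher and 12% with knockout lower. A second Grid1 probe set, 1421569_at, read 198, 83.9 and 132 in knockout and 15.9, 37.9 and 34.8 in wild type, and the dimmest of Dlg4, 1460261_at, read 107, 103 and 103 in knockout and 35.7, 19.3 and 61.0 in wild type. Without a filter on dim signals these had log2 differences of 2.24 and 1.58 (limma adjusted p = 0.590 and 0.593), while the tested probe sets of both genes differed by less than 0.1. A dim probe set of Grik3, 1427709_at, read 5.91, 4.65 and 3.93 in knockout and 10.1, 20.0 and 35.2 in wild type, beside 5th percentiles of 4.57, 4.91 and 4.72 on the knockout arrays and of 5.26, 10.5 and 19.97 on the wild type arrays. The part of array background in these values was not tested.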
